A study of Mus musculus with 2 samples.

Results

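Notum-positive primed nephron progenitors are the cells of the newborn kidney that still carried transcripts of Eya1, a progenitor gene, together with transcripts of Notum, an extracellular enzyme that removes the lipid from Wnt ligands. A cell barcode was a member when it held at least 2 UMIs (unique molecular identifiers, each marking 1 captured transcript) of Eya1, at least 2 of Notum, at most 1 of Cited1, a gene of uncommitted progenitors, and 0 of Pecam1 (endothelium) and Ptprc (immune cells). Of 9227 barcodes kept in the series, 120 met the rule, 62 of 4187 in the library labelled WT and 58 of 5040 in the library labelled KO. Since the rule reads Notum, Eya1 and Cited1, their levels in these cells describe the choice and are not results.

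The study used newborn mice (postnatal day 0) in which Six2Cre, a recombinase driven in nephron progenitors and passed on to the nephron epithelium they form, acted on floxed Flcn. Flcn encodes folliculin, a regulator of nutrient signalling at the lysosome and of the transcription factors TFEB and TFE3. The WT library is heterozygous by the design text (Six2Cre; Flcn flox/+) and the KO library is homozygous (Six2Cre; Flcn flox/flox), so both carry the Cre, and the WT library carries 1 floxed allele beside a normal one. The tissue label reads embryonic kidney, although the titles and the design text give day 0 after birth. The labels name neither the strain nor the number of animals per library. Each genotype was measured in 1 library, so there was no replicate error and no test between genotypes. Every 95% interval given is an exact interval of counting error alone, and WT against KO compares these libraries.

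Nephrons form when Wnt9b from the ureteric bud reaches the mesenchyme around its tips. Progenitors that hold Six2, Cited1 and Eya1 renew themselves there, and stronger beta-catenin signalling makes some of them lose Cited1, switch on Wnt4 and leave for the pretubular aggregate and the renal vesicle, where Lhx1, Pax8 and Jag1 mark the early epithelium. Notum is a feedback inhibitor induced by that signal, and Lef1, Axin2, Sp5, Nkd1, Znrf3 and Rnf43 are also induced by it. Cells between the renewing and the committed state are called primed.

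The libraries held 147390790 (WT) and 149679281 (KO) UMIs over 5572 and 5991 barcodes, with medians of 21340 and 18803.5 UMIs in kept barcodes. Members were deeper, with medians of 36017 UMIs (13089 to 121170) in WT and 33245 (14077 to 192756) in KO, and median mitochondrial shares of 3.06% and 2.80%. The libraries had 5 barcodes in common, 1 among kept barcodes and 0 among members of both. Comparison sets followed fixed rules on the same barcodes: 224 WT and 113 KO Cited1 progenitors (Eya1 and Cited1 at least 2, Notum at most 1), 203 and 167 early nephron cells (Lhx1 and Jag1 at least 2), 1065 and 1865 stromal cells, and 299 and 463 endothelial cells. A further set, added after the data were seen, holds the 58 WT and 57 KO cells that missed the rule by 1 Notum UMI. The other sets share no cell with each other, but this further set may overlap the early nephron cells.

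Members made up 1.48% of kept WT barcodes (exact Clopper-Pearson interval 1.14 to 1.89) and 1.15% of kept KO barcodes (0.875 to 1.49), and the intervals overlap. Of barcodes with at least 2 Eya1 UMIs they were 7.41% of 837 in WT (5.73 to 9.40) and 7.49% of 774 in KO (5.74 to 9.58), nearly the same share in both libraries. The rule counts molecules, so depth bears on it directly. With each barcode thinned at random to 10000 UMIs, 19 of 3644 WT barcodes and 9 of 4389 KO barcodes met it. These are 2.62% (1.59 to 4.06) and 1.42% (0.649 to 2.67) of thinned Eya1-positive barcodes, lower in KO with overlapping intervals. A share of barcodes also cannot tell fewer such cells from less Notum RNA in each.

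Most other barcodes with at least 2 Notum UMIs were left out by the Eya1 criterion. Such barcodes, members included, numbered 120 in WT and 102 in KO. Of these, 42 and 33 had fewer than 2 Eya1 UMIs, 9 and 1 had both Eya1 and at least 2 Cited1 UMIs, and 7 and 10 held Pecam1 or Ptprc. The overlap of Notum with Cited1 was therefore small in both libraries. Of the Eya1-positive barcodes, 542 in WT and 602 in KO had neither 2 Notum nor 2 Cited1 UMIs.

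The label came with markers that the rule did not read, Rnase12, a member of the ribonuclease A family, and Col9a1, a chain of type IX collagen. Levels are in CPM, counts scaled to the nuclear-encoded total, summed over the cells of a set. They allow comparison of 1 gene between sets but not of 2 genes, since 3′ counts carry no scale per transcript length. Rnase12 stood at 66.0 CPM in WT and 172 CPM in KO members, against 17.7 and 13.4 in Cited1 progenitors, 16.3 and 15.2 in early nephron cells, and under 1 CPM in stroma and endothelium. Col9a1 stood at 73.4 and 24.4 CPM in members, against 14.6 and 9.32 in Cited1 progenitors and 5.74 and 0.983 in early nephron cells. Both markers were highest in the members in both libraries. They were given with the label, so their levels describe the members and are not an independent check of it. Rnase12 lies on chromosome 14 (GRCm38, 51056698 to 51057661, minus strand), Col9a1 on chromosome 1 (24177610 to 24252684, plus strand) and Notum on chromosome 11 (120653788 to 120661175, minus strand).

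**Figure D1:**
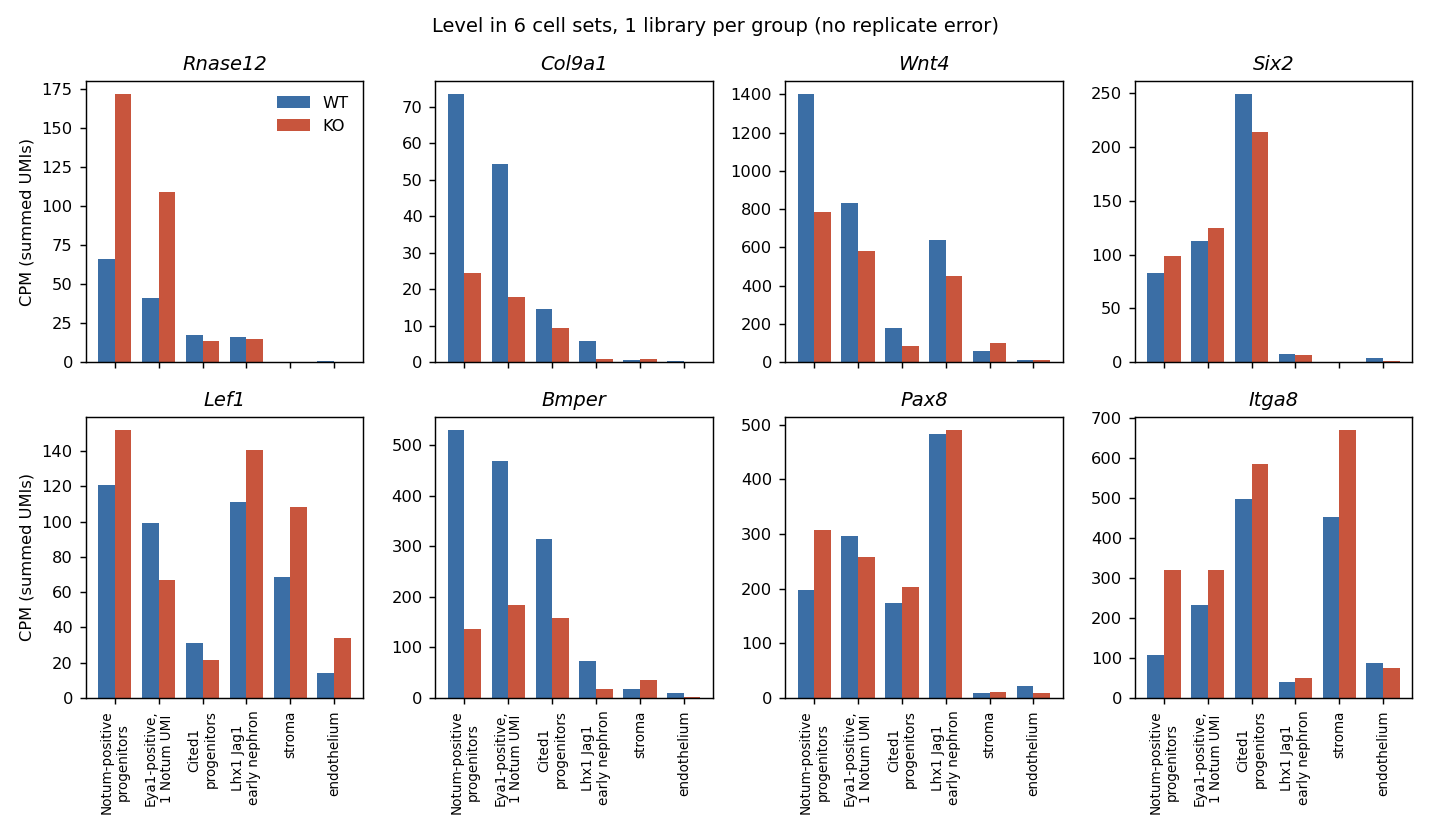
CPM of 8 genes (vertical axes, linear, from 0) in 6 cell sets of the WT (blue) and KO (red) library; each bar is 1 library's sum and has no replicate error. Rnase12, Col9a1 and Wnt4 are highest in the Notum-positive progenitors of both libraries, while Six2 lies between Cited1 progenitors and early nephron cells.

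Wnt4, the ligand that drives the mesenchyme into epithelium, was high in the members without being part of the rule. It was found in all 62 WT members (3603 UMIs, 1400 CPM) and all 58 KO members (2028 UMIs, 786 CPM). In Cited1 progenitors it stood at 179 and 84.4 CPM, so members were 7.82-fold (7.35 to 8.32) above them in WT and 9.31-fold (8.29 to 10.5) in KO. Early nephron cells held 639 and 451 CPM, less than the members of the same library. Six2, the transcription factor of self-renewal, was still present at 83.1 and 98.4 CPM, 0.33-fold (0.29 to 0.39) and 0.46-fold (0.40 to 0.53) of Cited1 progenitors, against 7.30 and 7.02 CPM in early nephron cells. Lhx1 stood at 35.0 and 32.5 CPM, against 64.1 and 14.4 in Cited1 progenitors and 427 and 459 in early nephron cells, whose rule reads Lhx1. On Six2 the members thus lay between the renewing and the committed cells, on Wnt4 above both, and on Lhx1 far below the committed cells. A single member held 51.1% of the Lhx1 UMIs in WT and 63.1% in KO, so the order of members and Cited1 progenitors on Lhx1 is not read.

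Across the boundary of the rule Wnt4 declined in steps. It stood at 992 CPM in the 18 WT members with exactly 2 Notum UMIs, 832 CPM in the 58 cells with 1 and 433 CPM in the 484 with 0. In KO the same steps gave 719 CPM (23 cells), 583 CPM (57 cells) and 342 CPM (545 cells). Rnase12 was 38.8, 41.1 and 17.9 CPM along these steps in WT and 124, 109 and 26.1 CPM in KO. On Wnt4 and Rnase12 cells just outside were thus near those just inside, and cells without Notum had less of both transcripts in both libraries. Other genes gave no such order. Six2 stood at 100, 113 and 95.9 CPM along the steps in WT and 102, 125 and 107 CPM in KO. Lef1 fell in order in neither library, and Col9a1 and Bmper in WT only.

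Members varied among themselves. With each cell thinned to 10000 UMIs, Six2 was seen in 54.8% of WT (41.7 to 67.5) and 67.2% of KO members (53.7 to 79.0), Lef1 in 61.3% and 63.8%, and Pax8 in 61.3% and 82.8%. The same measure in endothelium, which should lack these genes and whose median depth was 28427 (WT) and 31064 UMIs (KO), gave at most 1.91% for Six2, 10.9% for Lef1 and 6.87% for Pax8. Lhx1 was seen in 16.1% and 5.17% of members, against 2.29% and 0.993% of endothelium. Six2, Lef1 and Pax8 were thus each seen in most members of both libraries, and Lhx1 in few. Before thinning, Six2 was seen in 79.0% and 86.2% of members.

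**Figure D2:**
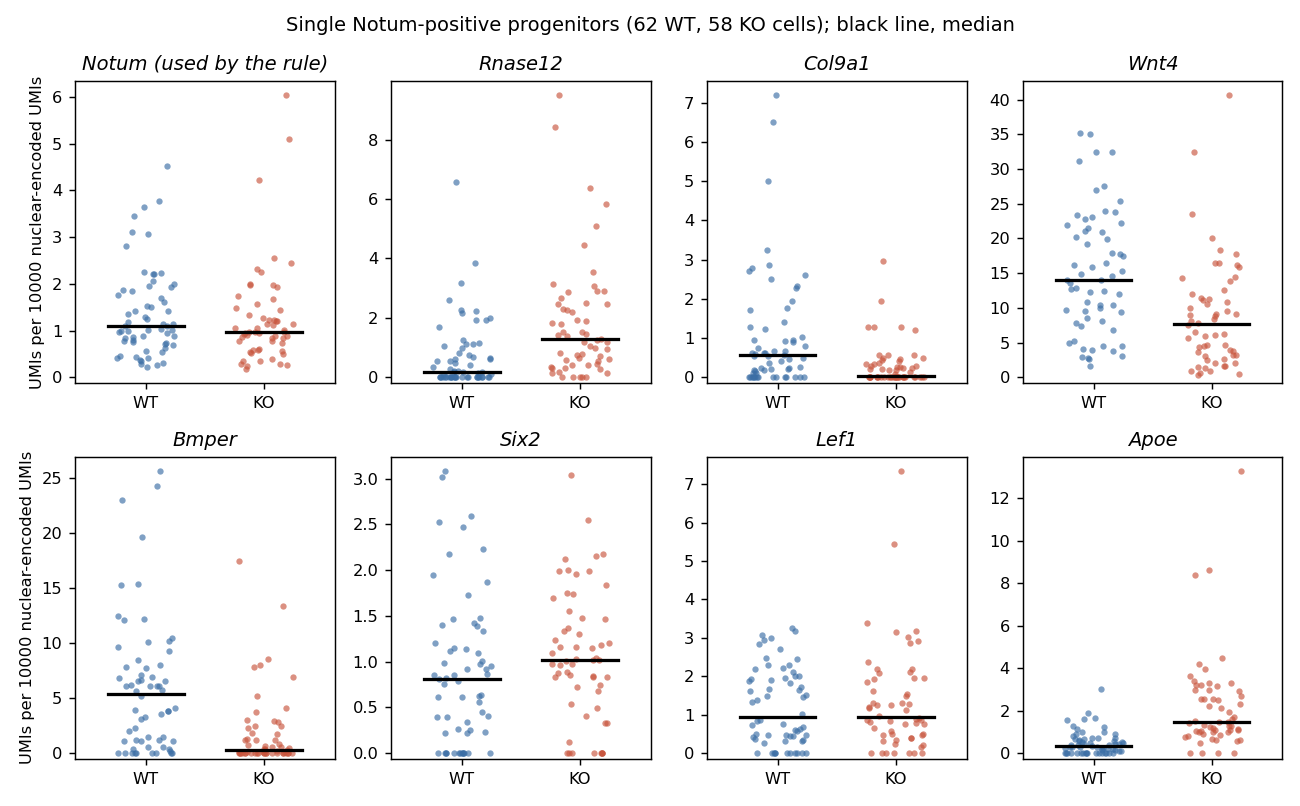
Each point is 1 member (62 WT in blue, 58 KO in red) and the vertical axes give UMIs per 10000 nuclear-encoded UMIs of that cell; black lines are medians. Rnase12 and Apoe have higher medians in KO, Col9a1, Wnt4 and Bmper lower ones, and single cells of the libraries overlap for all 8 genes.

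The members were then set against Cited1 progenitors of the same library. Of 11958 genes with at least 30 UMIs in each library, 488 (4.08%) were at least 1.5-fold higher in members in both libraries and 494 (4.13%) at least 1.5-fold lower. A further 142 were 1.5-fold apart in opposite directions in WT and KO. Since members and Cited1 progenitors were chosen from these counts, the ratios describe 2 sets of cells and were not tested.

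Among feedback genes of Wnt and beta-catenin signalling, 6 of 16 measured with at least 10 UMIs were at least 1.5-fold higher in members in both libraries, where 5.29% of all 14824 such genes were. One of these is Notum, which the rule read. Lef1, the factor that carries beta-catenin to DNA, was 3.87-fold higher in WT (3.27 to 4.59) and 7.01-fold higher in KO (5.54 to 8.96). Sp5, a repressor induced by the pathway, was 3.54-fold (2.48 to 5.05) and 3.34-fold (2.12 to 5.38) higher. Nkd1, which binds Dishevelled, was 2.71-fold and 2.53-fold higher, and Znrf3, the ligase that removes Frizzled receptors, 1.51-fold and 2.01-fold. The remaining gene of the 6 was Rnf43, the partner of Znrf3, at 12 and 17 UMIs with intervals that include 1. Axin2, the most used readout of the pathway, was 1.12-fold (0.87 to 1.43) and 1.16-fold (0.88 to 1.53), with intervals that include 1. Dkk1, a secreted inhibitor, was the only gene of the list lower in both, at 11 and 3 UMIs in members.

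The 250 bases before the RefSeq start are printed for Col9a1, a marker given with the label, and Sp5, a gene of the Wnt feedback list. They are on the plus strand (GRCm38.p6, chr1:24177360-24177609 and chr2:70474673-70474922), with a match to the TCF/LEF letters in capitals. No gene of the GENCODE annotation overlaps either window.
Col9a1: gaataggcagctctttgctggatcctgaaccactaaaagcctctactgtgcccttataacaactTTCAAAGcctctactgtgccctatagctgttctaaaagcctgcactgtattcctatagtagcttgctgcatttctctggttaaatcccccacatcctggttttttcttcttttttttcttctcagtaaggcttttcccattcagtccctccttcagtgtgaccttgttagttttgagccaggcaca
Sp5: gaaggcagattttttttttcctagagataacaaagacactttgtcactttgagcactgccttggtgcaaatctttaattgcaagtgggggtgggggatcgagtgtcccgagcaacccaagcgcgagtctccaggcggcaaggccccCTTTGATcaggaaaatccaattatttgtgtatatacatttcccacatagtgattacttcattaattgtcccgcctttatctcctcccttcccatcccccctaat

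The letters searched were CTTTGAA and CTTTGAT on both strands. Col9a1 holds CTTTGAA on the opposite strand, beginning 186 bases before the start, and Sp5 holds CTTTGAT beginning 104 bases before it. Of the 250 bases before the start in 32851 RefSeq windows, searched in the same way, 7.48% hold either spelling. In the Wnt feedback list 11 of 17 genes had a window and 2 of them a match, Sp5 and Dkk1, which moved in opposite directions against Cited1 progenitors. These 11 genes had 17 windows, and the 7.48% is a share of windows and not of genes. The other Col9a1 window (chr1:24194953-24195252) holds neither spelling, and the one with a match was chosen for printing. The windows found for Rnase12, Lef1 and Axin2 hold neither spelling. A match here is a string of letters and was not tested as a binding site.

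The progenitor list, genes of the uncommitted state, went the other way. Of its 21 measured members 10 were at least 1.5-fold lower in both libraries and 0 higher, where 5.65% of all genes were lower; Cited1, which the rule read, is among the 10. Crym, a thyroid hormone binding protein, stood at 0.11-fold in WT (0.084 to 0.13) and 0.17-fold in KO (0.14 to 0.22) of Cited1 progenitors. Osr1, a factor of the intermediate mesoderm, stood at 0.20-fold and 0.31-fold, and Robo2, a guidance receptor, at 0.18-fold and 0.33-fold. Meox1 had 0 UMIs in the WT members and 10 in the KO members, against 15.1 and 28.5 CPM in Cited1 progenitors. The median log2 ratio of the list was -1.02 in WT and -0.34 in KO, against 0.04 and 0.03 over all genes, so the decline from Cited1 progenitors to members was larger in the WT library.

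**Figure D3:**
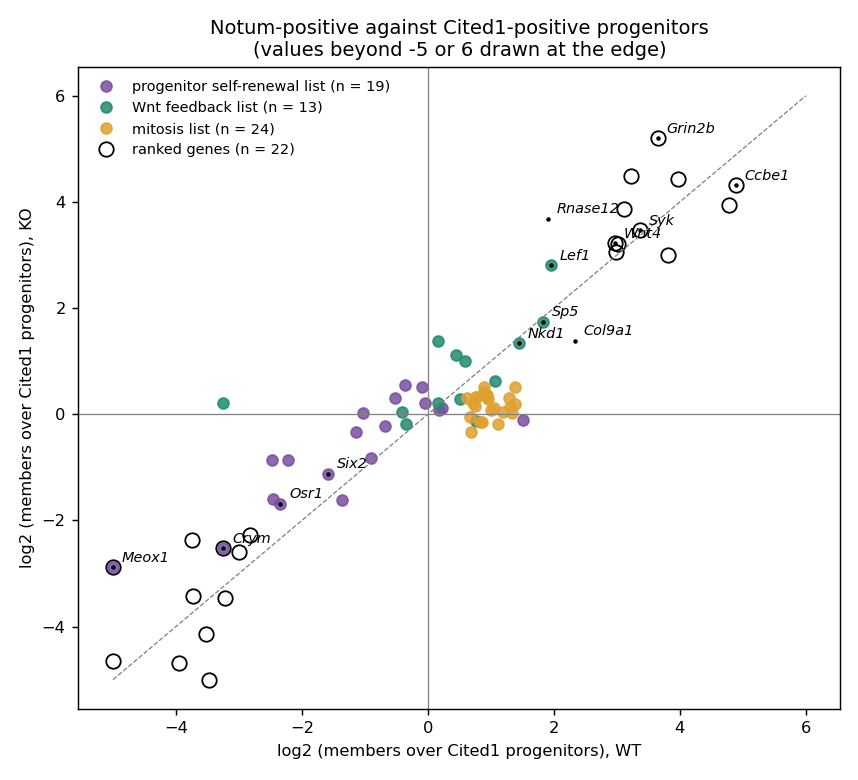
Log2 ratio of members over Cited1 progenitors in WT (horizontal) and KO (vertical), genes with at least 30 UMIs, rule genes left out; colours mark the gene lists, open circles the ranked genes, and the dashed line equal ratios. Wnt4, Lef1, Sp5, Syk and Ccbe1 lie above 0 on both axes, Six2, Osr1, Crym and Meox1 below 0, and the mitosis genes lie right of the dashed line.

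The genes ranked as most different from Cited1 progenitors held few known kidney regulators besides Wnt4. Syk, a cytoplasmic tyrosine kinase, stood at 89.4 and 100.3 CPM in members against 8.67 and 9.07 CPM, 10.3-fold (7.86 to 13.7) and 11.1-fold (7.79 to 16.1). Lsamp, an adhesion protein of neurons, was 7.95-fold and 8.29-fold higher, and Pcdh19, a protocadherin, 8.07-fold and 9.28-fold. Ccbe1, a secreted factor of lymphatic growth, was 29.6-fold (13.6 to 76.4) and 19.9-fold (11.3 to 38.1) higher from 66 and 168 UMIs. Notum, which the rule read, also ranked on the higher side. Greb1, Apba2, Grin2b, Dcc, Gad1 and Diras2 complete the ranked group, with ratios from 8.03 to 36.7 over both libraries. Several of these are best known from neurons, and each was found in at least 14 members of each library. On the lower side stood Nell1 (0.11-fold and 0.091-fold), the cadherin Fat3 (0.13-fold and 0.17-fold), Sgcz, Ocm, Adamts17, Nell1os, Pou3f3, Dock5 and Slc5a12, with Crym and Meox1. Cited1, which the rule read, also ranked on the lower side. Ocm, Nell1os, Pou3f3 and Slc5a12 had at most 6 UMIs in the members of a library. The Cited1 progenitors included 6 WT and 10 KO barcodes with at least 10 UMIs of proximal tubule markers. Of 7 proximal tubule markers 3 were at least 1.5-fold lower in members in both libraries, and 0 higher. Of 5 loop and distal tubule markers 4 were lower and 0 higher, where 5.65% of all genes were lower. The part of barcodes with tubule markers in the lower ratios was not tested.

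The deleted gene itself could not be read as a check. Flcn (chromosome 11, 59791408 to 59810016, minus strand) gave 20 UMIs in 16 WT members and 26 UMIs in 20 KO members, 7.77 and 10.1 CPM, a KO over WT ratio of 1.30 (0.70 to 2.45). Counts from the 3′ end need not fall when exons further upstream are removed, and the labels do not name the exons between the loxP sites. Loss of Flcn in single members was therefore not tested.

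Between the libraries, the primed markers went apart. Rnase12 had 170 UMIs in 37 of 62 WT members and 443 UMIs in 53 of 58 KO members, a ratio KO over WT of 2.60 (2.17 to 3.12). Col9a1 had 189 UMIs in 47 WT and 63 UMIs in 29 KO members, a ratio of 0.33 (0.25 to 0.44). Per cell, Rnase12 ran from 0 to 6.58 UMIs per 10000 in WT (median 0.192) and from 0 to 9.5 in KO (median 1.28), so the libraries overlap while their medians differ. Thinned to 10000 UMIs, 32.3% of WT and 62.1% of KO members held Rnase12, against 0.763% and 0% of endothelium, where 0 of 403 cells allows a share of up to 0.744% by a floor of 3 counts (exact upper limit 0.911%). Cells that missed the rule by 1 Notum UMI, and so took no part in choosing the members, gave 2.66 (2.03 to 3.52) for Rnase12 and 0.33 (0.21 to 0.50) for Col9a1. In Cited1 progenitors Rnase12 was not higher in KO (ratio 0.75), and in early nephron cells it was 0.93. Notum and Eya1, the genes of the rule, had ratios of 0.91 and 1.04.

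Wnt4 was lower in KO members, at 0.56 of the WT level (0.53 to 0.59). Per cell it ran from 1.68 to 35.2 UMIs per 10000 in WT (median 14.0) and from 0.389 to 40.6 in KO (median 7.72). The ratio was 0.70 (0.65 to 0.76) in the cells with 1 Notum UMI, 0.47 in Cited1 progenitors and 0.71 in early nephron cells, so it was below 1 in each of these sets, and it was 1.64 in stroma. Bmper, a secreted modulator of BMP signals, had the largest count of UMIs among the ranked lower genes, 1365 in 53 WT members and 351 in 36 KO members. Its ratio was 0.26 (0.23 to 0.29), with 0.39, 0.50 and 0.25 in the cells with 1 Notum UMI, Cited1 progenitors and early nephron cells. Thinned, Bmper was seen in 75.8% of WT and 37.9% of KO members, against 4.96% and 0.993% of endothelium.

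Over all genes, 975 of 11379 with at least 30 UMIs (8.57%) were at least 1.5-fold higher in KO members and 808 (7.1%) at least 1.5-fold lower. For the ranking of the 12 highest and 12 lowest, the bound of the interval closer to 1 was used. Counts of single cells weigh heavily in sums over about 60 cells. The number of cells, or the share of UMIs in 1 cell, is therefore given for the genes described singly.

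Several of the 12 higher genes rested on few cells. C7, a complement component, had 0 UMIs in WT and 53 in KO, all in 1 cell, at least 17.6-fold higher with 3 counts over the group as the floor for WT. Dlk1, an imprinted Notch-like ligand, had 85.1% of its 121 KO UMIs in 1 cell, and its ratio of 6.35 became 1.14 without the top cell of each library. Col1a1, Col1a2, Dcn and Ecm1, genes of stromal matrix, had 52.2% to 83.5% of their KO UMIs in 1 cell. By contrast Fgf12, an intracellular FGF homologous factor, had 80 UMIs in 23 WT members and 511 UMIs in 46 KO members, a ratio of 6.37 (5.02 to 8.17), and 3.02 (2.18 to 4.26) in cells with 1 Notum UMI. Frem1, a basement membrane protein, had 41 UMIs in 12 and 222 UMIs in 29 members, a ratio of 5.40 (3.86 to 7.73) and of 3.72 (2.58 to 5.47) in the cells with 1 Notum UMI, beside 1.07 in Cited1 progenitors. Mgll, a monoglyceride lipase, was found in 9 WT and 24 KO members, Sema3a in 7 and 17, Tenm2 in 5 and 12, and Dscaml1 in 5 and 9. Of the higher genes, Fgf12 and Frem1 were thus the ones spread over the most cells.

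Of the 12 lower genes, Bmper, Foxc2 and Nog were found in many WT members. Foxc2, a forkhead factor of the kidney mesenchyme, had 163 UMIs in 40 WT members and 37 in 14 KO members, a ratio of 0.23 (0.15 to 0.33). Over all settings run the ratio of Foxc2 ranged from 0.098 to 0.76, so its size depends on the processing. Nog, the BMP antagonist noggin, had 56 UMIs in 27 and 10 UMIs in 9 members, a ratio of 0.18 (0.081 to 0.35). Bmper and Nog both act on BMP ligands outside the cell. Tmem100, Chst9, Sdk2, Npy, Prrx2 and Pcp4 had ratios from 0.11 to 0.27, and their cell counts are not reported here. Dkk2, a Wnt inhibitor, and Cav1, the caveolin, had 54.2% and 62.9% of their WT UMIs in 1 cell, with ratios of 0.052 and 0.028.

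The 58 WT and 57 KO cells with 1 Notum UMI allow a second look at the 24 genes in cells that did not rank them, although in the same libraries. Of the 12 higher genes 10 had ratios above 1 there, 7 with an interval above 1, and Col1a1 had an interval below 1. Of the 12 lower genes 10 had ratios below 1, 7 with an interval below 1, and 0 had an interval above 1. Foxc2 (0.84, 0.61 to 1.14) and Sdk2 (0.82, 0.64 to 1.03) had intervals that include 1 there, while Chst9 (0.36) and Nog (0.14) did not. Pcp4 and Dkk2 stood at 1.12 and 1.20. In Cited1 progenitors 7 of the 12 higher genes had ratios above 1, 3 with an interval above 1 and 2 with one below, and 10 of the 12 lower genes had ratios below 1, 9 with an interval below 1 and 1 with one above. In the cells with 1 Notum UMI 7 of 7 measured podocyte markers were at least 1.5-fold higher in KO (median log2 2.38) and 7 of 7 proximal tubule markers at least 1.5-fold lower (-3.62), and their part in the ratios was not tested.

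**Figure D4:**
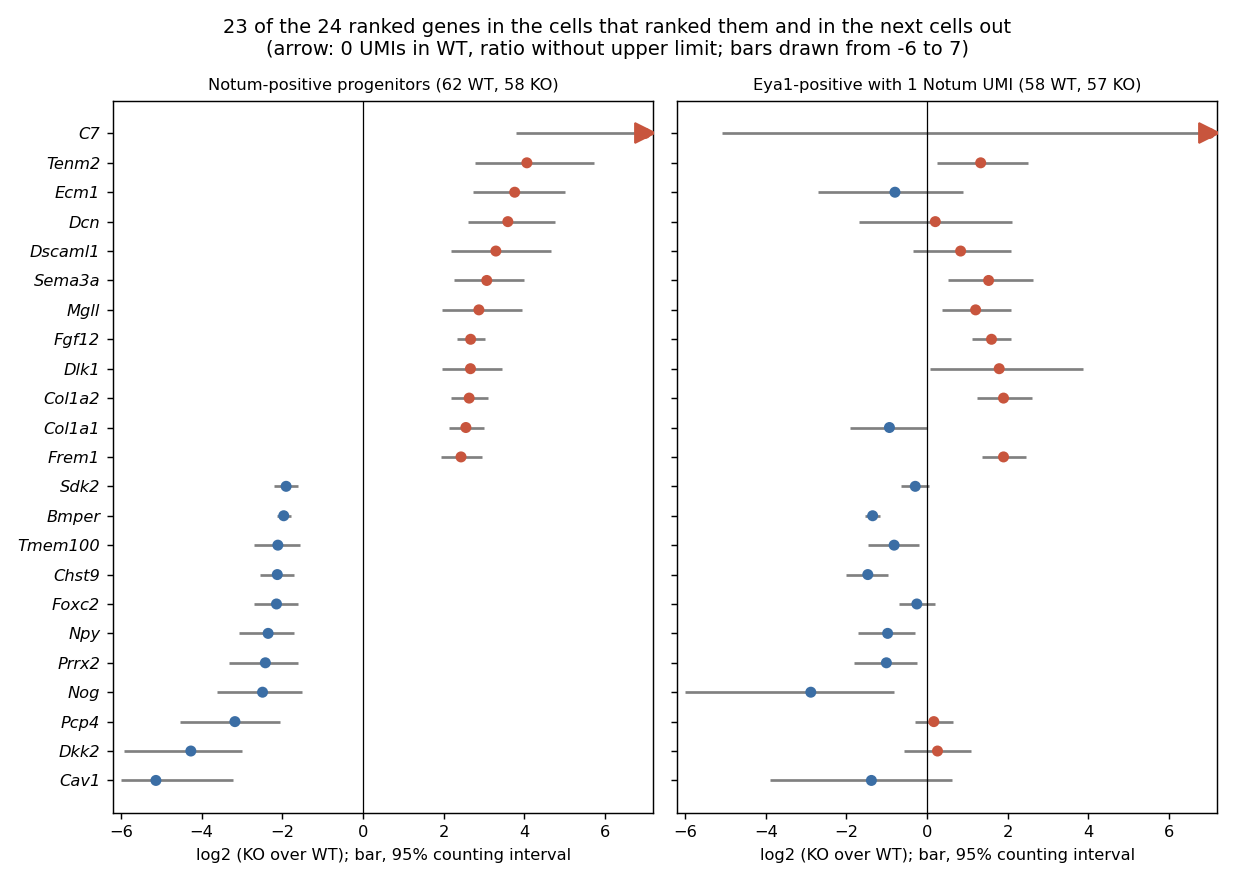
Log2 ratio KO over WT of 23 of the 24 ranked genes (points; red higher, blue lower in KO) with 95% counting intervals (bars), in members (left) and in Eya1-positive cells with 1 Notum UMI (right); C7, with 0 WT UMIs, is an arrow at the edge. Fgf12, Frem1, Bmper and Chst9 keep to the same side with intervals away from 0, while Col1a1, Ecm1, Dkk2 and Pcp4 change sides.

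Genes of the folliculin pathway were next. FNIP1 and FNIP2 bind folliculin, and the Rag GTPases RRAGC and RRAGD act with mTORC1 at the lysosome. MITF, TFEB and TFE3 are the factors released to the nucleus when folliculin is missing. Of 22 measured targets of TFEB and TFE3, 9 were at least 1.5-fold higher in KO members and 1 lower, where 11.9% of 14339 genes with at least 10 UMIs were higher and 11.2% lower. The median log2 ratio was 0.51, against 0.00 over all genes. Uap1l1 had 15 UMIs in 9 WT members and 78 UMIs in 40 KO members, a ratio of 5.19 (2.96 to 9.70). Rragd had 117 UMIs in 36 and 252 in 52 members, a ratio of 2.15 (1.7 to 2.7), and Fnip1 301 UMIs in 55 and 534 in 56, a ratio of 1.77 (1.53 to 2.04). Fnip2 stood at 1.45 (1.10 to 1.91) and Mitf at 1.64 (1.28 to 2.11), while Tfeb (0.96, 0.51 to 1.77) and Tfe3 (1.02, 0.64 to 1.64) had intervals that include 1. Ppargc1a, a coactivator of mitochondrial genes, had 15 and 46 UMIs, a ratio of 3.06 (1.68 to 5.90).

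Apoe, apolipoprotein E, had 123 UMIs in 45 WT and 499 UMIs in 54 KO members, a ratio of 4.05 (3.31 to 4.97). Endothelium also held it in 52.3% and 62% of thinned cells, members in 37.1% and 81.0%, so the WT share did not exceed that of endothelium, and the ratio in endothelium was 1.17. In Cited1 progenitors the Apoe ratio was 17.9, larger than in members. Without barcodes with at least 10 UMIs of proximal tubule markers it was 12.4 (10.5 to 14.8) there. Gpnmb, a lysosomal glycoprotein, had 19 and 36 UMIs in 8 and 10 members, too few cells for a level.

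Lysosomal genes were higher by small amounts. Of 41 genes for hydrolases and membrane proteins 35 had ratios above 1, 11 were at least 1.5-fold higher and 1 lower (Sgsh, 7 and 3 UMIs), beside 11.9% and 11.2% of all genes, with a median log2 of 0.37. Lamp2, a membrane protein of the lysosome, had a ratio of 1.8 (1.54 to 2.10), Hexa, a subunit of beta-hexosaminidase, 1.63 (1.21 to 2.22), and Npc2, which hands on cholesterol, 1.58 (1.35 to 1.86). The vacuolar ATPase, the pump that acidifies the lysosome, had 14 of 15 subunits above 1, with 3 at least 1.5-fold higher (11.9% of all genes), a median log2 of 0.33 and Atp6v0b highest at 1.81 (1.52 to 2.16). Autophagy genes had a median of 0.07, with 2 of 24 at least 1.5-fold higher and 1 lower.

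The list medians for TFEB and TFE3 targets, lysosome and vacuolar ATPase were 0.74, 0.30 and 0.28 in the cells with 1 Notum UMI, and 0.98, 0.90 and 0.77 in Cited1 progenitors. The set of Cited1 progenitors included 6 WT and 10 KO barcodes with at least 10 UMIs of proximal tubule markers. Without those 16 barcodes its medians were 0.55, 0.50 and 0.46, closer to those of the members. In stroma, a lineage outside the Six2 domain, the medians were 0.08, 0.08 and 0.05, and in endothelium 0.04, -0.11 and -0.11.

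**Figure D5:**
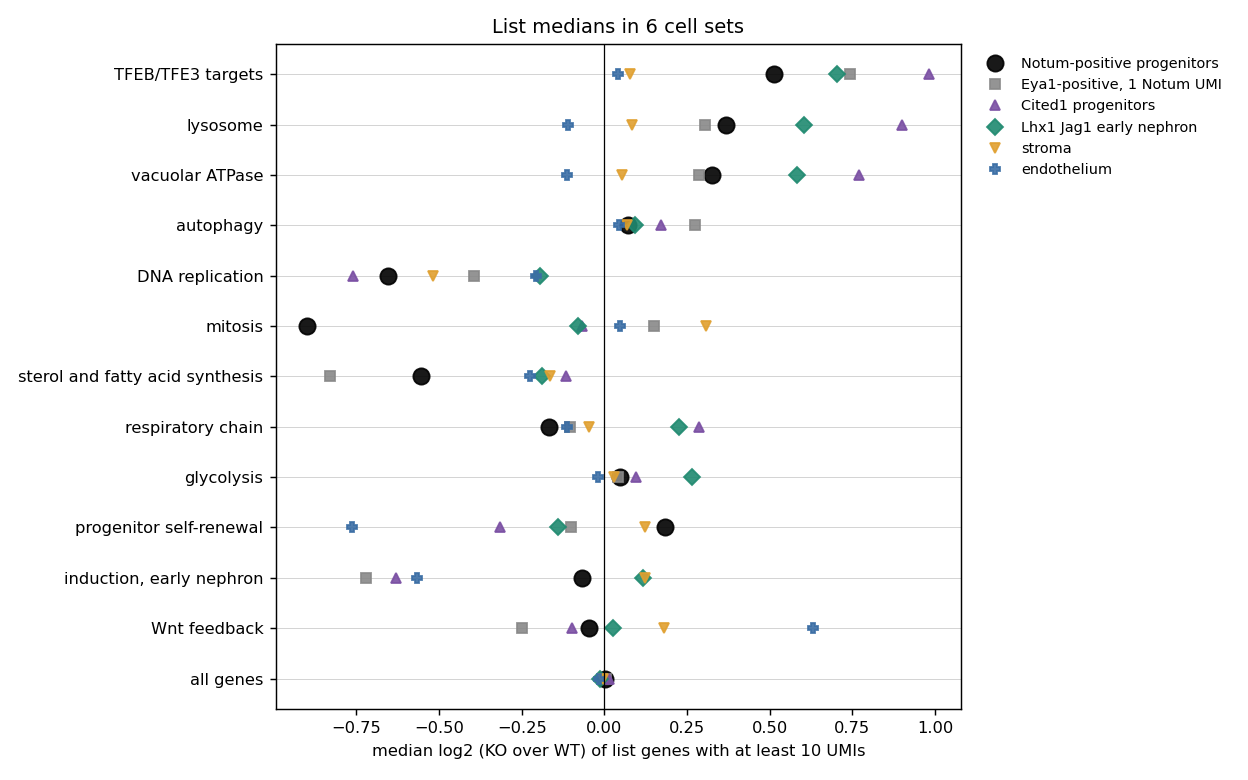
Median log2 ratio KO over WT (horizontal) of the genes of each list with at least 10 UMIs, in 6 cell sets (markers); the large black point is the Notum-positive progenitors. TFEB/TFE3 targets, lysosome and vacuolar ATPase lie right of 0 in the nephron lineage and near 0 in stroma and endothelium, and the mitosis list is at -0.90 in members and within -0.08 to 0.31 elsewhere.

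Mitosis and DNA replication genes were lower in the KO members. All 24 mitosis genes had ratios below 1 and 20 were at least 1.5-fold lower, with a median log2 of -0.90. Of 23 replication genes 12 were at least 1.5-fold lower, with a median of -0.65, where 11.2% of all genes were lower. The replication difference was not particular to the members. Its median was -0.76 in Cited1 progenitors (19 of 23 lower), -0.52 in stroma (9 of 23), -0.19 in early nephron cells and -0.21 in endothelium. Top2a, a topoisomerase of dividing cells, had 1188 UMIs in 39 WT members and 535 UMIs in 22 KO members (0.45, 0.40 to 0.50), and Mki67 had 720 UMIs in 32 and 386 UMIs in 18 (0.53, 0.47 to 0.61). Cdkn1a, which encodes the cyclin-dependent kinase inhibitor p21, was higher, with 56 UMIs in 20 and 211 UMIs in 40 members, a ratio of 3.76 (2.79 to 5.14). Cdkn1c, another inhibitor of the family, had a ratio of 1.71 (1.45 to 2.03). Mycn, a transcription factor of the Myc family, stood at 1.79 (1.45 to 2.23). Of 15 measured cell cycle regulators these were the 3 at least 1.5-fold higher. Another 3 were at least 1.5-fold lower and the list median was 0.04, so the list had no common direction.

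The mitosis genes share few cells, and the top cell alone carried 1188 of the 4778 mitosis UMIs of KO members. By cell count the share was lower in KO, with overlapping intervals. With at least 2 mitosis UMIs after thinning to 10000, 36 of 62 WT members (58.1%, 44.9 to 70.5) and 28 of 58 KO members (48.3%, 34.9 to 61.8) were positive. Before thinning these shares were 80.6% and 75.9%. With at least 10 such UMIs, a limit chosen after the data were seen, the counts were 24 (38.7%, 26.6 to 51.9) and 11 (19%, 9.87 to 31.4), again with overlap. In cells with 1 Notum UMI the mitosis median was 0.15 and the replication median -0.39, so the mitosis difference was not seen next to the members. Cdkn1a was higher there too, at 2.83 (2.10 to 3.86). Relative to Cited1 progenitors, the mitosis median of members was 0.91 in WT and 0.21 in KO.

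Of 23 genes of sterol and fatty acid synthesis, 11 were at least 1.5-fold lower and 3 higher, with a median log2 of -0.56, beside 11.2% and 11.9% of all genes. The 3 higher genes are near that background. Idi1, an isomerase of the pathway (0.45, 0.32 to 0.64), and Hmgcs1, an early enzyme of it (0.63, 0.53 to 0.76) were lower, as was Srebf2, the factor that controls them (0.62, 0.52 to 0.74). Fasn, fatty acid synthase, was higher at 1.70 (1.28 to 2.26). The list median was -0.83 in cells with 1 Notum UMI, and -0.12 in Cited1 progenitors, -0.19 in early nephron cells and -0.17 in stroma. The 28 nuclear-encoded respiratory chain genes had a median of -0.17, with 0 past 1.5-fold in either direction.

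Of the 20 measured progenitor genes 6 were at least 1.5-fold higher in KO members and 2 lower, with a median of 0.18. The shares over all genes were 11.9% and 11.2%, and the 2 lower genes are near that background. Itga8, the integrin that receives nephronectin, had 276 UMIs in 39 WT and 828 UMIs in 50 KO members, a ratio of 2.99 (2.61 to 3.44). Robo2 had 1393 UMIs in 59 and 2443 in 57 members, a ratio of 1.75 (1.64 to 1.87), and Bmp7 stood at 1.75 (1.37 to 2.23). Six2 was 1.18 (0.98 to 1.43), an interval that includes 1. Npnt, the ligand of Itga8, went the other way at 0.43 (0.33 to 0.55). In cells with 1 Notum UMI Itga8 stood at 1.37 (1.21 to 1.56), Robo2 at 1.33 and Bmp7 at 0.93, so the step was smaller there and absent for Bmp7.

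Genes of induction and the early nephron did not move together: 3 of 18 were at least 1.5-fold higher, 4 lower, with a median of -0.07. The shares over all genes in members were 11.9% and 11.2%. Pax8 had a ratio of 1.56 (1.39 to 1.75) in members and 0.87 (0.77 to 0.99) in cells with 1 Notum UMI, which lie on opposite sides of 1. The median of the list in those cells was -0.72, with 12 of 21 at least 1.5-fold lower, where 11.5% of genes were lower, and 2 higher. In the Wnt feedback list 2 of 16 were higher and 2 lower, with a median of -0.05. Axin2 (1.02, 0.75 to 1.38), Sp5 (0.88, 0.62 to 1.26) and Nkd1 (0.96, 0.77 to 1.20) had intervals that include 1, and Lef1 stood at 1.26 (1.08 to 1.46) in members against 0.67 (0.53 to 0.86) in cells with 1 Notum UMI. No shared direction of the feedback genes between the libraries was thus seen, in cells that were chosen for 1 of them.

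FGF signals keep progenitors alive and growing, and 12 of 18 genes of that pathway had ratios above 1 (3 at least 1.5-fold higher, 3 lower, median 0.24). Over all genes 11.9% were higher and 11.2% lower, so the small counts in this paragraph are not read as a direction of a pathway. Etv4, a factor induced by FGF and GDNF, had a ratio of 1.98 (1.51 to 2.62), Dusp6, a feedback phosphatase, 1.47 (1.16 to 1.87), and the receptor Fgfr3 0.26 (0.13 to 0.47). Etv4 and Dusp6 stood at 1.10 and 1.03 in cells with 1 Notum UMI, and Fgfr3 at 0.40. Of 11 Notch genes 0 were at least 1.5-fold higher and 3 lower, Notch1 at 0.43 (0.30 to 0.60) and Lfng and Nrarp on 35 and 12 UMIs. BMP and Smad genes had a median of 0.05, with 2 of 16 higher and Bmper lower. Among matrix genes Col2a1, the chain of type II collagen, was lower beside Col9a1, at 0.43 (0.36 to 0.52) in members and 0.49 (0.38 to 0.62) in cells with 1 Notum UMI.

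Markers of other cell types moved with the KO library and are given as measured. Of 11 stromal markers 8 were at least 1.5-fold higher in KO members and 0 lower, beside 11.9% and 11.2% of all genes. Their median log2 was 0.87, with summed levels of 1380 CPM in WT and 2228 CPM in KO. Much of the collagen lay in a few cells: 2 WT and 5 KO members held at least 10 UMIs over Col1a1, Col1a2, Col3a1 and Dcn, 1 KO cell held 592 of the 1008 such UMIs, and 39 WT and 33 KO members held 0. These same 2 and 5 cells were the members with the highest doublet scores. Without them Col1a1 stood at 0.67, Dlk1 at 0.94 and Col1a2 at 2.02, and the stromal median at 0.40, Foxc2 at 0.098 and Frem1 at 3.44, while Rnase12 (2.87), Col9a1 (0.35), Wnt4 (0.59) and Bmper (0.28) kept their direction. Meis1 (1.82, 1.62 to 2.05) and Foxd1 (1.61, 1.31 to 1.98), stromal factors, were higher in members and at 1.87 and 1.77 in cells with 1 Notum UMI, and the part of stromal RNA in these values was not tested.

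Haemoglobin and other erythroid markers summed to 12.4 CPM in WT and 483 CPM in KO members, where 2 KO cells held 1217 of 1246 such UMIs. Proximal tubule markers were lower, 6 of 6 by at least 1.5-fold, with sums of 83.1 and 38.3 CPM, of which 1 WT cell held 91 of 214 UMIs. Endothelial markers summed to 17.5 and 22.1 CPM and immune markers to 6.6 and 4.65 CPM, with Pecam1 and Ptprc at 0 by the rule. Podocyte markers summed to 267 and 489 CPM, with 3 of 6 at least 1.5-fold higher, 3 lower and 226 of the 1262 KO UMIs in 1 cell. Loop and distal tubule markers summed to 8.94 and 18.6 CPM and ureteric markers to 188 and 165 CPM. The part of these markers in the KO over WT ratios was not tested.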

How the data were processed

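Per the labels, cells from newborn kidney were captured in 10x Chromium droplets with 3′ chemistry. The tools named in the submitters' processing notes are STAR 2.7.2a, bcl2fastq 2.20.0 and Cell Ranger, with build GRCm38. The Cell Ranger version is 7.0.0 for the WT matrix and 7.1.0 for KO, per the file headers, so version and genotype cannot be told apart. The deposited values are raw UMI counts, 1 matrix per library and 1 library per group. The labels name no annotation and no setting for introns.

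Barcodes with at least 1000 UMIs, 500 genes and at most 20% mitochondrial UMIs were kept. Counts were summed per cell set and scaled to CPM without mitochondrial genes. Ratios carry exact conditional binomial 95% intervals, shares Clopper-Pearson intervals, and log2 ratios used 0.5 added UMI. PCR error is limited by UMIs, but intervals cover counting error only. Doublets were kept: the threshold of Scrublet called 3 WT and 2 KO barcodes, under 0.5%, so the 140 and 203 highest scores were removed as an alternative. Named genes were the 12 highest and 12 lowest by the interval bound nearest to 1, with at least 30 UMIs (and 20 CPM in 1 library for KO over WT), without ribosomal, mitochondrial, haemoglobin, Xist, Y-linked and unnamed genes, plus rule and marker genes, Flcn, Fnip1, Fnip2, Tfeb, Tfe3, Mitf, and from each list the extremes and genes of known role. Fgf12 and Frem1 were singled out after their cell counts were seen. Of 55488 gene rows, 55227 had an identifier in GENCODE M21, which gave positions. A few genes of the ranking and lists count in the totals but are not reported here by name. The intervals were checked on simulated counts. Members, lists and tests were chosen with earlier results of these data known. Work used Python 3.11.15, numpy 2.4.6, scipy 1.17.1, pandas 2.3.3, scanpy 1.11.5, edgeR 4.0.16 and DESeq2 1.42.0, the last 2 for scaling factors only.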

Additional observations from a re-analysis of the deposited data

Results flagged for a closer look

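Cav1, Ecm1 and Tenm2 had ratios KO over WT on opposite sides of 1 in the members and in Cited1 progenitors, with intervals that exclude 1 in both. Cav1 stood at 0.028 in members and 14.9 in Cited1 progenitors, from 70 UMIs in 7 WT members, 62.9% of them in 1 cell, and 2 UMIs in KO. Ecm1 stood at 13.6 and 0.43, with 83.5% of its 109 KO UMIs in 1 cell. Tenm2 stood at 16.8 and 0.11, from 5 UMIs in 5 WT members and 84 UMIs in 12 KO members. With 1 library per group these differences were not tested.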

How the results depend on the processing

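With 1 library per group, direction and size could be followed under other settings but no call could be tested. No paired analysis was possible because each group has 1 library. With the rule on thinned counts (19 WT, 9 KO members) the shares were 0.52% (WT) and 0.21% (KO), the lysosome median 0.58, the replication median -0.36 and the mitosis median -3.97, and Dcn (0.81), Gpnmb (0.63), Lef1 (0.83) and Mitf (0.92) reversed, as did Pax8 (0.98, WT) and Slc5a12 (6.08, KO) against Cited1 progenitors. With Notum at least 1 and at least 3 UMIs the shares were 2.87% and 1.05% in WT and 2.28% and 0.69% in KO, the mitosis median -0.55 and -1.36, and with at least 3 the replication median -0.88. The mitosis median was -1.26 with Cited1 at 0, -1.17 without the top cell of each gene and -0.50 without mitotic members, where Dcn was 0.66. Cycling members were 53.2% (WT) and 34.5% (KO) with at least 3 mitosis UMIs and 48.4% and 32.8% thinned to 5000 UMIs, with overlapping intervals. Genes 1.5-fold higher and lower numbered 438 and 325 with at least 100 UMIs and 5147 and 5325 with no minimum, by the number of genes tested. With doublet scores removed, or without the collagen-bearing members (added after seeing the data, as were the settings on mitotic members and proximal markers), Col1a1 was 0.67, Dlk1 0.94 and the matrix list median -0.10. The adhesion list median in Cited1 progenitors, not described above, was -0.023 without barcodes with proximal markers. The cause of these shifts was not tested. Rnase12 stayed above 1 and Col9a1, Wnt4 and Bmper below 1 under each setting run, and TMM and median-of-ratios scaling shifted KO over WT by -0.02 and 0.00 log2. Depth limits genes with few UMIs, such as Flcn, Tfeb, Gpnmb and Dkk1.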
